A study of Mus musculus with 24 samples.

Results

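The subject is the response of the control line of a doxycycline (DOX) experiment, measured as the 3 control libraries with 7 d of DOX against the 3 control libraries without DOX. These 6 libraries are chosen by their column names in the raw count table and are 6 of 24 libraries in all. The cells are βTC3, a mouse insulinoma line from the Rip-Tag2 model, in which the insulin promoter drives the SV40 large T antigen in β cells. The control cells carry the plasmid PB-31 with no miRNA insert, while the other lines carry PB-31 with miR-137 or with the miR-23b cluster. All cells were plated in triplicate in 6-well plates. The untreated group spent 7 d in plain DMEM and the treated group 7 d in DMEM with DOX at 2 µg/ml. In the miRNA lines a further group had 7 d with DOX and then 7 d without it. The labels give the control line no such withdrawn group, and they name no date, plate, clone or sequencing run.

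DOX is a tetracycline antibiotic that is used to switch on engineered promoters. A line without an inducible insert shows how cultures with and without the drug differ when no miRNA is induced. Tetracyclines bind the bacterial ribosome, and they can also slow protein synthesis on the mitochondrial ribosome, which descends from a bacterial one. β cells make and store insulin in dense granules that are acidified by a proton pump, and they read glucose through glycolysis and mitochondrial respiration. The question the comparison answers is which RNAs differ between treated and untreated cells when no miRNA is induced.

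The control libraries held 16444948 to 20047802 gene counts without DOX and 19416477 to 20775602 with DOX. Across all 24 libraries the range was 15759849 to 24144737. Levels are CPM, counts scaled by TMM library size, which suit comparisons of 1 gene between libraries and not of 2 genes with each other. Changes are log2 fold changes of DOX over no DOX with their standard error (SE), from edgeR's quasi-likelihood test with Benjamini-Hochberg adjustment over 14866 genes, and n is 3 libraries a group. A gene is said to rise, to fall or to be called where its adjusted p is below 0.05. Nothing in the labels says that the 3 libraries of a group came from separate experiments, so the p-values measure only the spread between these libraries, which may be technical. The first principal component of all 24 libraries held 32.3% of the variance and set the untreated libraries of all 3 lines apart from the rest, withdrawn libraries included. DOX itself and any other difference between the untreated cultures and the rest cannot be told apart here. The control libraries with DOX stood apart in 1 measure: at an equal depth of 15759849 counts they held 20245 to 20435 genes with a count, against 19281 to 19709 without DOX and 19089 to 19609 in the 18 libraries of the other lines.

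In the control line 5624 of the 14866 tested genes were called, which is 37.8% of them. Of these, 2753 rose (18.5%) and 2871 fell (19.3%), and these shares are the background for every list below. The changes were small: the median size among called genes was 0.26 on the log2 scale, and 4324 of them changed by less than 0.5. The median over all tested genes was 0.01. In 5276 of the called genes the 3 treated libraries lay all above or all below the 3 untreated ones, as they did in 6937 (46.7%) of all tested genes. Among the 11069 genes that reached 5 CPM, 28 rose and 78 fell by more than 1 on the log2 scale. Among the rarer genes the balance was the other way, with 190 that rose and 121 that fell by more than 1. Over all levels and sizes of change, 46 of 327 antisense genes rose and 12 fell, and 62 of 328 lincRNAs rose and 33 fell, against 2505 and 2737 of 13039 protein-coding genes. Small nucleolar RNA genes, whose products guide modification of other RNAs, counted 1 riser and 11 that fell among 64. The lincRNA risers and the small nucleolar RNA genes that fell were near the background shares of 18.5% and 19.3%. The other counts of these noncoding classes were below them.

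**Figure D1:**
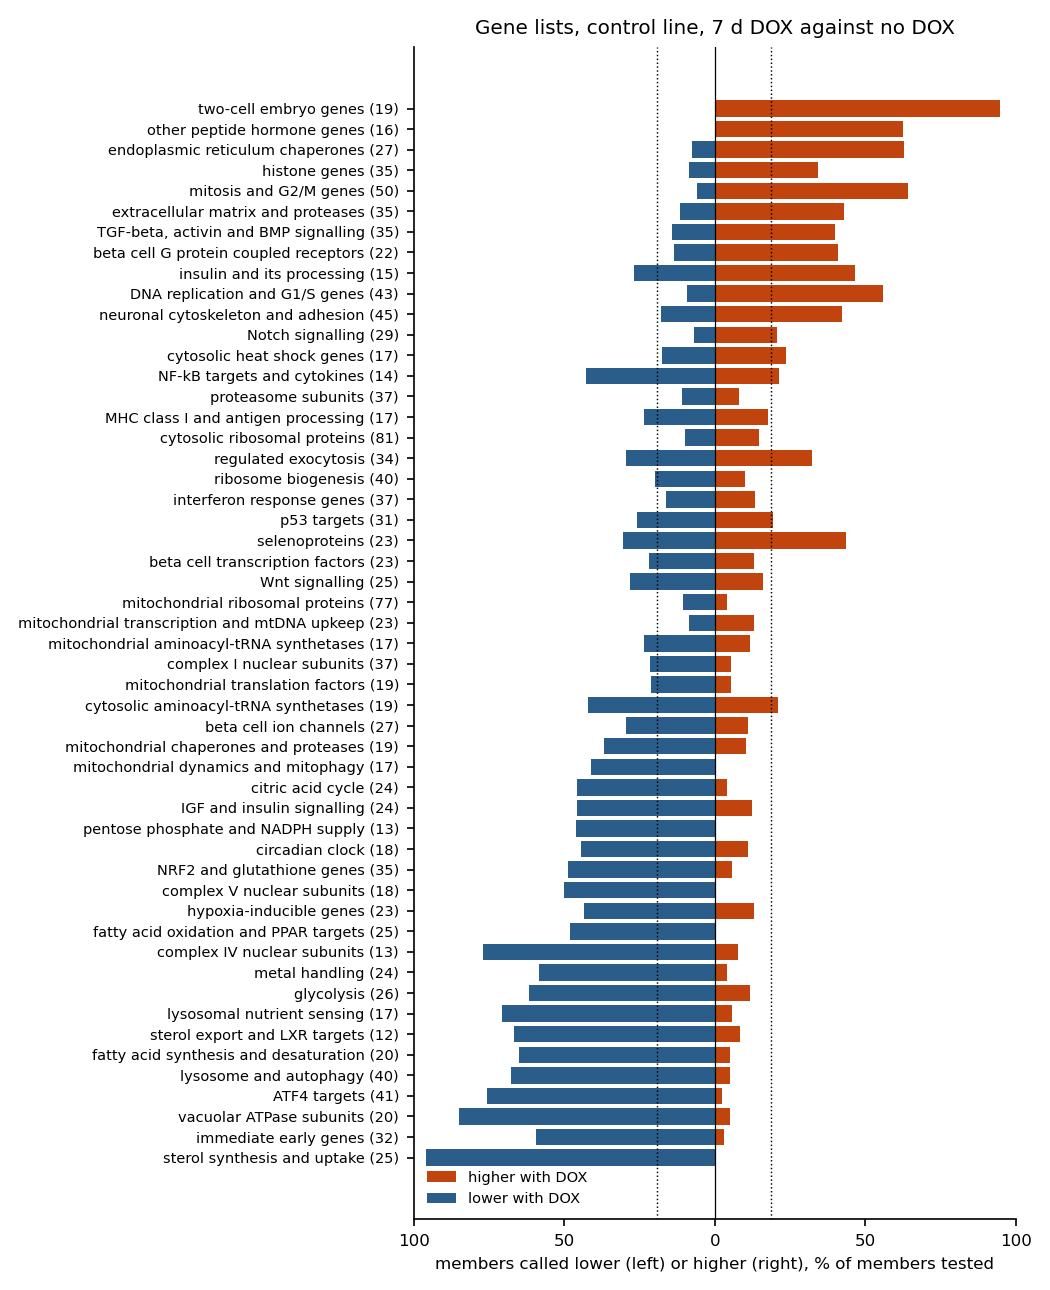
Share of the tested members of each gene list that were called lower (bars to the left) or higher (bars to the right) in the control line with 7 d of DOX, in percent, with the number of tested members in brackets, dotted lines at the shares over all genes and lists ordered by median log2 change. Of those drawn, the sterol synthesis, vacuolar ATPase, complex IV and ATF4 lists have the largest shares lower, and the 2-cell embryo, mitosis, chaperone and hormone lists the largest shares higher.

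The mitochondrial genome lost transcripts unevenly. It is read from the heavy strand as 1 long transcript that is cut into rRNAs, tRNAs and mRNAs, with the rRNAs at its start. The 16S rRNA gene mt-Rnr2 (chrM:1094-2675, plus strand, GRCm38) was at 1159, 1207 and 1233 CPM without DOX and at 428.8, 424.6 and 438.98 CPM with DOX. It fell by 1.48 ± 0.04 (log2, SE) with an adjusted p of 6.84e-29, and the groups lay far apart. The 12S rRNA gene mt-Rnr1 was at 393, 399 and 417 CPM without DOX and at 221, 211 and 214 CPM with DOX, a change of -0.90 ± 0.04 (log2). All 3 treated libraries were again below all untreated ones. The libraries were selected for polyA RNA, so these values describe the rRNA molecules that the selection retained.

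Next to the rRNAs, mt-Nd1, which encodes a subunit of respiratory complex I, was at 3768, 3924 and 4362 CPM without DOX and at 2999.5, 2441 and 2511 CPM with DOX (-0.60 ± 0.05, log2). mt-Nd2, for another subunit of complex I, changed by -0.56 ± 0.05 on the same scale. Among mRNAs farther along the transcript the falls were smaller. They were -0.20 ± 0.04 for mt-Co1, a subunit of cytochrome oxidase, and -0.30 ± 0.05 for mt-Nd4, which lies later. In mt-Nd4 and mt-Nd5 the groups overlapped, with treated replicate 1 among the untreated values. mt-Nd5 had the smallest call, -0.16 ± 0.06 with an adjusted p of 0.0381. mt-Cytb, near the end of the transcript, was at 3971, 4151 and 4392 CPM without DOX and at 4327, 3947 and 3943 CPM with DOX, and was not called (-0.03 ± 0.04, adjusted p = 0.557). mt-Nd6, read from the other strand, varied between 18.7 and 70.3 CPM among the untreated libraries alone and was not called. The called tRNA genes did not follow the mRNAs. mt-Ti, mt-Tm and mt-Tw, next to or past mt-Nd1, changed by -1.76 ± 0.18, -1.53 ± 0.46 and -1.08 ± 0.09, more than mt-Nd1. For mt-Tm this rests on 27 counts without and 10 with DOX. The tRNA gene mt-Tt (chrM:15289-15355, plus strand), past mt-Cytb, also goes against the smaller falls farther along. It had 54 counts without and 26 with DOX (-1.17 ± 0.35, adjusted p = 0.00797), and it was not called without treated replicate 2 (adjusted p = 0.0692).

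Of 24 mitochondrial rRNA and tRNA genes, 8 were tested, and 6 of those fell and none rose. This list was chosen after its values were seen. The tRNA gene mt-Tw, for tryptophan, was at 18.6, 17.4 and 18.1 CPM without DOX and at 7.86, 9.79 and 7.98 CPM with DOX (-1.08 ± 0.09, log2). mt-Ti, for isoleucine, was at 3.79, 4.27 and 4.39 CPM against 1.45, 0.951 and 1.27 CPM (-1.76 ± 0.18). Several mitochondrial genes, mt-Co2 and mt-Co3 among them, had 0 counts in every control library. Reads that map to more than 1 place were not counted in genes, so the mitochondrial mRNAs with nuclear copies are less certain.

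**Figure D2:**
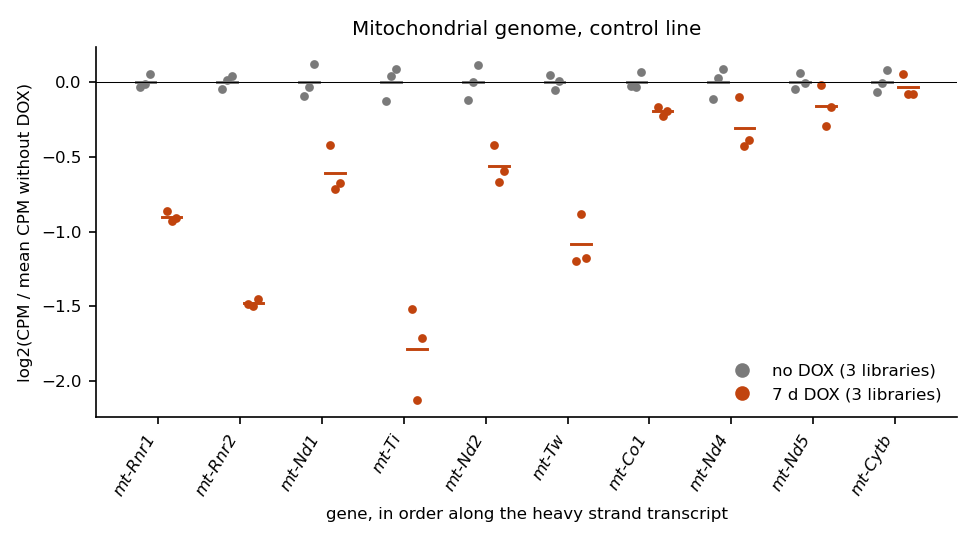
Log2 of the CPM of each control library over the mean without DOX, for 10 tested mitochondrial genes in their order along the heavy strand transcript, with grey points for the 3 untreated and red points for the 3 treated libraries and lines at the group means. The treated values lie lowest at mt-Rnr2 and mt-Ti and come back to the untreated level at mt-Cytb, while mt-Tt, which follows it with few counts, is not drawn.

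Nuclear genes of the mitochondrion moved less. Of 77 tested genes for mitochondrial ribosomal proteins, 8 fell and 3 rose, which is below the background share in both directions, and the median change was -0.03. Mrpl36 fell most, from 48.1 ± 2.13 to 34.9 ± 0.345 CPM (mean ± SD), a change of -0.47 ± 0.05 on the log2 scale. Lrpprc, which stabilises mitochondrial mRNAs, was at 194, 205 and 196 CPM without DOX and at 146, 143 and 147 CPM with DOX (-0.45 ± 0.03, log2). Its groups did not overlap. Tfam, which packages mitochondrial DNA, did not pass the test (-0.08 ± 0.04, adjusted p = 0.10).

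Subunits of the respiratory chain were read by complex. In complex IV, cytochrome oxidase, 10 of 13 nuclear subunits fell and 1 rose. Cox5a was at 92.0, 99.1 and 100.9 CPM without DOX and at 75.2, 63.1 and 63.7 CPM with DOX (-0.53 ± 0.08, log2). The riser was Cox6a2, a muscle-type subunit, from 2.03 ± 0.161 to 3.13 ± 0.559 CPM. In complex III 6 of 9 fell, in the ATP synthase 9 of 18, and in complex I 8 of 37 with 2 that rose, a share near the 19.3% over all genes. The medians of these lists lay between -0.17 and -0.05, so most of these changes were small.

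Enzymes of the citric acid cycle fell in 11 of 24 cases and rose in 1. Idh2, the mitochondrial NADP-dependent isocitrate dehydrogenase, was at 354, 350 and 355 CPM without DOX and at 263, 263 and 255 CPM with DOX (-0.44 ± 0.03, log2). Mitochondrial chaperones and proteases fell in 7 of 19 cases and rose in 2. Lonp1, the matrix protease that a stressed mitochondrion often induces, went from 214 ± 4.59 to 159 ± 2.88 CPM (-0.43 ± 0.04), and the chaperone gene Hspa9 from 557 ± 12 to 468 ± 12.8 CPM (-0.25 ± 0.03). Genes of mitochondrial dynamics and mitophagy fell in 7 of 17 cases, among them Mfn2, a fusion GTPase (-0.40 ± 0.03).

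Chchd10 (chr10:75933130-75937747), whose product lies between the mitochondrial membranes, was among the genes named by size of fall. It was at 47.9, 55.8 and 52 CPM without DOX and at 18, 15.8 and 14.8 CPM with DOX (-1.68 ± 0.10, adjusted p = 5.66e-17). Ppargc1a, a coactivator of genes for mitochondrial biogenesis, was at 10.7, 11.8 and 12.4 CPM against 4.86, 5.04 and 4.93 CPM (-1.23 ± 0.10). Esrra, a nuclear receptor that works with it, changed by -0.50 ± 0.06. All 3 genes had treated libraries wholly below the untreated ones.

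The lysosome formed the second large group of falling genes. Lysosomes digest proteins, glycans and lipids with hydrolases that need the acid made by the vacuolar ATPase, and their surface carries the Rag GTPases that report amino acids to mTORC1. The transcription factors TFEB and TFE3 are known to bind the palindrome TCACGTGA, the core of the so-called CLEAR element, in promoters of such genes. Of 40 tested lysosome and autophagy genes, 27 fell and 2 rose (median -0.32). Of 20 vacuolar ATPase genes, 17 fell and 1 rose (median -0.41), and 12 of 17 genes of lysosomal nutrient sensing fell and 1 rose (median -0.26). The last 2 lists were chosen after values were seen, and they share genes with the first.

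The core palindrome was searched in RefSeq promoter windows of GRCm38.p6, from 250 bases before to 50 bases after each gene's start, where it reads the same on both strands. It is held by 320 of 32851 windows (0.974%). Among genes that fell 104 of 2163 with a window held it (4.81%), among genes that rose 23 of 2100 (1.10%), and among tested genes that were not called 110 of 6588 (1.67%). In the lysosome list 6 of 31 did (19.4%), and in the vacuolar ATPase list 3 of 14 (21.4%). The shorter E-box CACGTG, which lies inside the palindrome, was held by 2349 of all windows (7.15%), by 18.96% of the genes that fell, by 8.95% of those that rose and by 9.94% of those not called. The genes that fell by more than 0.5 held the palindrome in 19 of 466 windows (4.08%). Those that fell by more than 1 held it in 2 of 120 (1.67%), a share that rests on few matches. A match is a run of letters and was not tested as a binding site. The 7 genes of these lists with a match all fell. They were chosen for holding the palindrome, so its presence in each was fixed by that choice, and most windows of both lists lack it. Their matches are shown with the neighbouring bases, with the palindrome in capitals and each sequence written 5′ to 3′ on the gene's own strand.
Ctsa: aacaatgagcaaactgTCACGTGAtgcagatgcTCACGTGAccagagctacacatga
Ctsd: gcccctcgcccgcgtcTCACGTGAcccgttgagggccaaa
Gla: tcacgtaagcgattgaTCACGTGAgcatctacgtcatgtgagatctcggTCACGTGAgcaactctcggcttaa
Mcoln1: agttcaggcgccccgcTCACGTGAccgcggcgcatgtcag
Atp6v1a: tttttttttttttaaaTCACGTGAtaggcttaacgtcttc
Atp6v0d1: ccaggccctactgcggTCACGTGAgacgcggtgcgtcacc
Atp6v0e: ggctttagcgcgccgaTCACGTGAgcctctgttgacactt

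The runs lie at chr2:164833744-164833800 on the plus strand for Ctsa, chr7:142387903-142387942 on the minus strand for Ctsd and chrX:134601177-134601249 on the minus strand for Gla. Those of Mcoln1 (chr8:3500457-3500496) and Atp6v0e (chr17:26676382-26676421) are on the plus strand, and those of Atp6v1a (chr16:44139368-44139407) and Atp6v0d1 (chr8:105566045-105566084) on the minus strand. The match begins 4 bases before the start of Atp6v0d1, 46 before that of Mcoln1, 99 before that of Ctsd and 132 before that of Atp6v1a. Ctsa and Gla each hold 2 matches.

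Among the hydrolases, Ctsa, the protective protein that carries sialidase and β-galactosidase, was at 415, 429 and 441 CPM without DOX and at 269, 267 and 255 CPM with DOX (-0.70 ± 0.04, adjusted p = 2.14e-18). Ctsd, an aspartic protease, was at 407, 413 and 419 CPM against 266, 287 and 274 CPM (-0.58 ± 0.04). Gla, which removes α-galactose, had the smallest change of the 7 with a match, 16.7, 18.6 and 16.8 CPM against 15.4, 14.9 and 13.6 CPM (-0.24 ± 0.07, adjusted p = 0.00738). In each of the 3 genes every treated library was below every untreated one. Hexa, the α subunit of β-hexosaminidase (chr9:59539540-59565109), fell most in the list. It was at 224, 253 and 259 CPM without DOX and at 114, 114 and 116 CPM with DOX (-1.10 ± 0.04, adjusted p = 1.17e-21). Ctsl, a cysteine protease, changed by -0.92 ± 0.05 and Neu1, the lysosomal sialidase, by -0.76 ± 0.06. Membrane proteins fell too: Lamp1 went from 1151 ± 27.5 to 778 ± 13.0 CPM (-0.57 ± 0.03), and Lamp2 from 285 ± 15.8 to 166 ± 3.42 CPM (-0.77 ± 0.04).

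The calcium channel gene Mcoln1 was at 119, 125 and 118 CPM without DOX and at 77.9, 89.1 and 81.4 CPM with DOX (-0.54 ± 0.04). In the proton pump, Atp6v0b, part of the membrane ring, went from 390 ± 10.1 to 239 ± 5.18 CPM (-0.71 ± 0.04) and Atp6v1a, the catalytic subunit, from 514 ± 6.39 to 359 ± 13.2 CPM (-0.52 ± 0.04). The 1 riser among the pump genes was Atp6v1g2, a neuronal subunit, which changed by 0.27 ± 0.09. The 17 that fell include Atp6v0c-ps2, a pseudogene copy whose reads are hard to place.

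The Rag GTPase gene Rragd (chr4:32983037-33022180) had the largest fall of the 3 lists among genes at 5 CPM or more. It was at 150, 176 and 169 CPM without DOX and at 55.9, 58.3 and 55.8 CPM with DOX (-1.54 ± 0.05, adjusted p = 7.65e-24). The treated libraries lay at about a common value, far below the untreated ones. Flcn, folliculin, which acts on RagC and RagD, went from 132 ± 7.07 to 84.2 ± 4.09 CPM (-0.65 ± 0.05), and Rragc from 177 ± 7.03 to 118 ± 2.59 CPM (-0.58 ± 0.04). Rraga did not pass the test (-0.07 ± 0.04, adjusted p = 0.158). The factor genes themselves moved little: Tfe3 rose by 0.10 ± 0.04, and Tfeb at 19.5, 20.1 and 19.3 CPM against 22.2, 18.1 and 20.4 CPM was not called. Autophagy genes of the list fell as well, with Map1lc3b at -0.48 ± 0.03, Gabarap at -0.51 ± 0.03 and the receptor gene Sqstm1 at -0.40 ± 0.03, while Wipi1 rose by 0.41 ± 0.04.

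**Figure D3:**
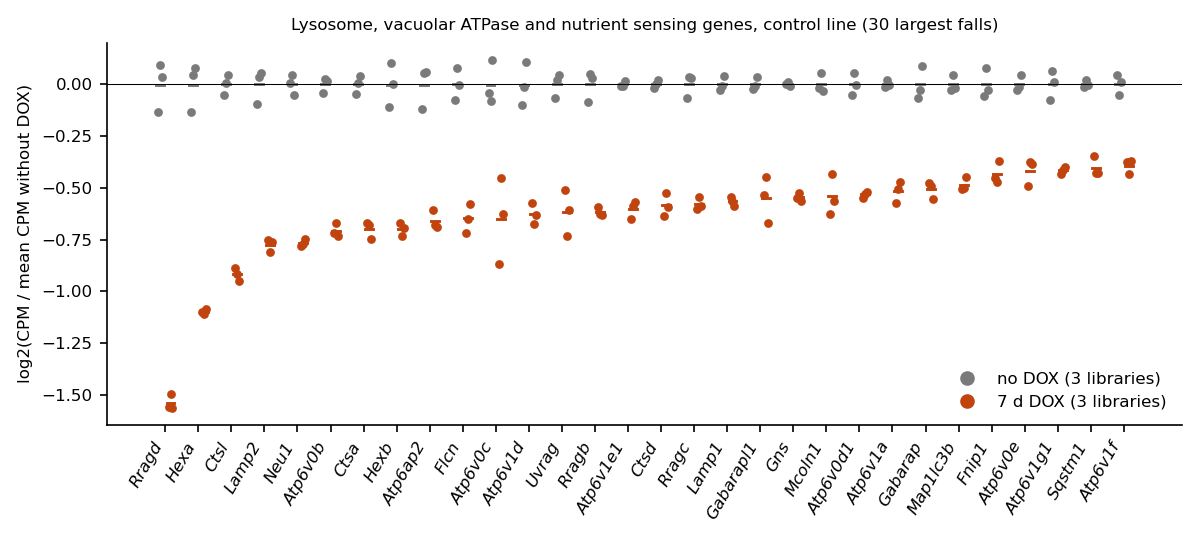
Log2 of the CPM of each control library over the mean without DOX, for the 30 largest falls among lysosome, vacuolar ATPase and nutrient sensing genes that reach 5 CPM, with grey points for untreated and red points for treated libraries and lines at the means. In every gene shown the red points lie below the grey ones, from Rragd and Hexa on the left to falls near -0.4 on the right.

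Lipid genes fell alongside. Sterol synthesis and uptake fell in 24 of 25 genes (median -0.72), with Insig1, the sterol-regulated anchor of SCAP, at -1.52 ± 0.04. In fatty acid synthesis and desaturation 13 of 20 genes fell and 1 rose. Scd1, a stearoyl-CoA desaturase, was at 308, 314 and 299 CPM without DOX and at 104, 105 and 111 CPM with DOX (-1.52 ± 0.05, adjusted p = 4.53e-24). Scd2 changed by -0.97 ± 0.03 and the elongase gene Elovl6 by -0.90 ± 0.09. The riser was Acly, which makes cytosolic acetyl-CoA, at 2860, 2694 and 2653 CPM against 3240, 3348 and 3258 CPM (0.26 ± 0.03). Fatty acid oxidation fell in 12 of 25 genes and rose in none, with the droplet coat gene Plin2 at -0.67 ± 0.06. Npc2, which carries cholesterol out of the lysosome, went from 131 ± 5.07 to 70.9 ± 2.11 CPM (-0.88 ± 0.05).

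Glycolytic genes fell in 16 of 26 cases and rose in 3 (median -0.25). Aldoc, an aldolase, was at 66.8, 68.9 and 62.4 CPM without DOX and at 32.9, 34.6 and 35.8 CPM with DOX (-0.94 ± 0.06). Aldoa was at 838, 927 and 849 CPM against 453, 597 and 602 CPM (-0.66 ± 0.08), and Ldha, lactate dehydrogenase, at 753, 776 and 745 CPM against 409.6, 604 and 637 CPM (-0.46 ± 0.11). In Aldoa and Ldha treated replicate 1 was the lowest library, and in both all treated libraries were below the untreated ones. Pfkfb3, which makes the activator of phosphofructokinase, was at 18.4, 17.1 and 16.7 CPM without DOX and at 32.7, 39.7 and 38.1 CPM with DOX (1.08 ± 0.08). It went against its list, with no overlap of the groups. Gapdh was also called higher, but it has many pseudogene copies and its level is uncertain. Of 13 genes for the pentose phosphate route and NADPH supply, 6 fell and none rose.

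Amino acid response genes driven by ATF4 fell in 31 of 41 cases and rose in 1 (median -0.33). ATF4 is the factor that is translated when eIF2α is phosphorylated, for instance in mitochondrial or amino acid stress. Its own gene, Atf4, was at 387, 388 and 382 CPM without DOX and at 295, 277 and 271 CPM with DOX (-0.45 ± 0.03, adjusted p = 2.3e-14). Chac1, which degrades glutathione, was at 46.8, 53.9 and 48.5 CPM against 27.1, 26.5 and 27.7 CPM (-0.87 ± 0.06). The groups were apart in both. Got1 changed by -0.68 ± 0.04, the serine synthesis gene Phgdh by -0.62 ± 0.06, the amino acid transporter gene Slc38a2 by -0.50 ± 0.03 and the asparagine synthetase gene Asns by -0.27 ± 0.03. Wars was the 1 riser (0.13 ± 0.04).

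Chaperones of the endoplasmic reticulum went the other way, with 17 of 27 higher and 2 lower (median 0.20). These proteins fold insulin and other secreted cargo. Derl3, of the pathway that removes misfolded proteins, was at 3.24, 2.62 and 2.59 CPM without DOX and at 6.16, 6.18 and 5.54 CPM with DOX (1.07 ± 0.14). Pdia4, a disulfide isomerase, was at 125, 116 and 123 CPM against 187, 170 and 177 CPM (0.55 ± 0.04), and Hspa5, the chaperone BiP, went from 927 ± 30.3 to 1131 ± 40.4 CPM (0.29 ± 0.04). The treated libraries were above the untreated ones in all 3. Herpud1, a membrane protein of the same removal pathway, fell by 0.54 on the log2 scale.

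Peptide hormone genes other than insulin rose in 10 of 16 cases and fell in none, with a median of 0.53. Pdyn, which encodes the opioid precursor prodynorphin (chr2:129686565-129699844), was at 21.9, 18.9 and 18.2 CPM without DOX and at 83.4, 73.6 and 69.8 CPM with DOX (1.94 ± 0.08, adjusted p = 7.44e-21). Sct, secretin (chr7:141278330-141279133), was at 15.3, 11.8 and 11.6 CPM against 40.7, 43.5 and 40.8 CPM (1.69 ± 0.08). No treated library came near an untreated one in either gene. Gcg, glucagon (chr2:62474530-62483650), was at 17.7, 16 and 16.3 CPM against 49.2, 41.8 and 39.2 CPM (1.38 ± 0.09), and Cck, cholecystokinin, at 20.6, 19.4 and 19.4 CPM against 52.4, 40.5 and 36.9 CPM (1.12 ± 0.11). Treated replicate 1 was the highest library for Pdyn, Gcg and Cck. Gip changed by 0.51 ± 0.07, Gal by 0.36 ± 0.08 and Igf2, an insulin-like growth factor, by 0.25 ± 0.03. In bulk RNA a larger share of cells that express a hormone and more RNA per cell cannot be told apart.

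Insulin and its processing genes rose in 7 of 15 cases and fell in 4. Cpe, the carboxypeptidase that trims prohormones, was at 977, 963 and 1026 CPM without DOX and at 1637, 1478 and 1428 CPM with DOX (0.61 ± 0.04). Ins1 rose by 0.41 ± 0.04 and Ins2 by 0.16 ± 0.03. These 2 genes are near copies, and reads that fit both are not counted. Iapp, the amyloid peptide stored with insulin, fell from 2888 ± 93.5 to 2068 ± 46.0 CPM (-0.48 ± 0.03), and G6pc2, a glucose-6-phosphatase of islets, changed by -0.46 ± 0.03. The granule protein gene Chgb rose by 0.64 ± 0.04 and its relative Scg2 fell by 0.41 on the log2 scale. Of 22 tested G protein coupled receptor genes of β cells, 9 rose and 3 fell. The somatostatin receptor gene Sstr5 was at 22.6, 19.9 and 20.6 CPM against 35.1, 35.6 and 35.4 CPM (0.74 ± 0.06), and Sstr3 changed by 0.61 ± 0.05. Among 23 β cell transcription factors 3 rose and 5 fell. Nkx6-1 was at 333, 341 and 349 CPM without DOX and at 290, 252 and 237 CPM with DOX (-0.39 ± 0.07), while Pdx1 and Mafa were not called (adjusted p = 0.42 and 0.793).

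The labelled cell type was checked on summed marker levels. The 8 β cell markers summed to 13861 to 14201 CPM without DOX and to 13820 to 14582 CPM with DOX. The 5 α cell markers, Gcg among them, summed to 118 to 131 CPM and 233 to 304 CPM. Of these, Irx2 was not called (288 and 298 counts), and Irx1 had 10 and 6 counts. The 4 enteroendocrine markers, with Sct and Cck, summed to 32 to 36.6 CPM and 79 to 94.1 CPM, the 2 δ cell markers to 1.27 to 2.01 CPM and 2.13 to 2.75 CPM, and the 2 PP cell markers to 0.106 to 0.250 CPM and 0.250 to 0.285 CPM. The sums were 0.0529 to 0.200 and 0.380 to 0.610 CPM for 7 acinar markers, with Cpb1 and Prss2 at 0 in all 6 libraries. They were 2.95 to 3.55 and 3.06 to 4.17 CPM for 8 leukocyte markers, with Cd3e at 0. They were 2.4 to 3.92 and 4.36 to 4.57 CPM for 8 fibroblast markers, and 0.847 to 1.46 and 1.47 to 1.60 CPM for 6 endothelial markers. The 6 duct markers summed to 11.457 to 12.03 CPM without DOX and 11.369 to 13.407 CPM with DOX, which overlap. The α, enteroendocrine, δ, PP, acinar, fibroblast and endothelial sums were thus higher in all treated libraries than in any untreated one. The PP sums nearly met, at 0.24958 CPM without and 0.25043 CPM with DOX. They rest on few counts, 8 and 10 for Ppy and 2 and 6 for Pyy. The acinar sums do too, with Pnlip at 3 and 20 counts. Among the endothelial markers Pecam1 had 8 and 33 counts, while Vwf had 47 and 29. The part of cells of these types in other results was not tested.

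Selenoproteins split into risers and fallers. They carry selenocysteine, which is inserted at a UGA codon. Of 23 tested genes 10 rose and 7 fell, in a list chosen after values were seen. Selenoh, a nuclear redox protein (chr2:84669215-84670770), was at 20.1, 19.1 and 19.6 CPM without DOX and at 42.3, 47.2 and 43.4 CPM with DOX (1.18 ± 0.07, adjusted p = 3.22e-17). Gpx1, a glutathione peroxidase, was at 14.1, 13.2 and 13.9 CPM against 27.8, 26.9 and 23.8 CPM (0.93 ± 0.07), and Selenow changed by 0.85 ± 0.06. All 3 rose without overlap of the groups. Dio1, a deiodinase of thyroid hormone, was at 15, 14.5 and 18.9 CPM against 6.31, 6.70 and 7.52 CPM (-1.24 ± 0.11). Sephs2, which makes the selenium donor and is a selenoprotein itself, changed by -0.67 ± 0.04.

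Metal handling genes fell in 14 of 24 cases and rose in 1, Slc39a10. The metallothionein gene Mt1, whose product binds zinc and copper, was at 267, 291 and 286 CPM without DOX and at 135, 146 and 140 CPM with DOX (-1.0 ± 0.05, adjusted p = 8.17e-19). Mt2 changed by -0.75 ± 0.05 and the copper pump gene Atp7b by -1.05 ± 0.11. The transferrin receptor gene Tfrc, for iron uptake, changed by -0.51 ± 0.05, and Ftl1, for the ferritin light chain, by -0.64 ± 0.05. Slc30a8, which loads zinc into insulin granules, did not pass the test (0.05 ± 0.03, adjusted p = 0.285). Genes of the NRF2 and glutathione list fell in 17 of 35 cases and rose in 2, with Mgst1 at -1.03 ± 0.09 and Hmox1, heme oxygenase, at -0.71 ± 0.06.

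Cell cycle genes rose together by small steps. Of 43 DNA replication and G1/S genes 24 rose and 4 fell (median 0.11), and of 50 mitosis and G2/M genes 32 rose and 3 fell (median 0.15). Rrm2, the small subunit of ribonucleotide reductase, went from 143 ± 6.35 to 201 ± 8.48 CPM (mean ± SD), with no overlap of the groups (0.49 ± 0.04). Ccnf, cyclin F, changed by 0.41 ± 0.04, Top2a by 0.21 ± 0.03 and Mki67 by 0.13 ± 0.03. Chaf1b, a histone chaperone of replicating DNA, fell by 0.36 on the log2 scale. Of 31 p53 target genes 6 rose and 8 fell. Pmaip1, the death effector NOXA, was at 0.499, 0.488 and 0.370 CPM against 3.56, 2.57 and 1.73 CPM (2.52 ± 0.29), whereas Cdkn1a, the cell cycle inhibitor p21, was not called (0.04 ± 0.03, adjusted p = 0.434). Btg2 fell by 1.29 on the log2 scale. It is an immediate early gene as well, and 19 of 32 genes of that class fell and 1 rose.

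Neuronal cytoskeleton and adhesion genes, which endocrine tumour cells share with neurons, rose in 19 of 45 cases and fell in 8. Dcx, doublecortin, which binds microtubules of migrating neurons, was at 259, 241 and 243 CPM without DOX and at 411, 412 and 430 CPM with DOX (0.75 ± 0.04, adjusted p = 1.2e-18). Kif1a, a motor of dense granules, was at 506, 512 and 489 CPM against 281, 294 and 286 CPM (-0.81 ± 0.03). Both shifts were far larger than the spread within a group, in opposite directions. The netrin receptor gene Unc5d changed by 1.12 ± 0.13 and the neurofilament gene Nefm by -0.78 ± 0.05. Among matrix genes 15 of 35 rose and 4 fell, with Col27a1 at 0.60 ± 0.07 and Tnr, tenascin R, at -1.16 ± 0.05. The summed fibroblast markers, which include collagen genes, were also higher in the treated libraries, and their part in this list was not tested. Col1a1, the 1 tested gene of those 8 markers, held most of that sum, with means of 2.73 and 3.84 CPM. Its rise lost its call on TPM (adjusted p = 0.414), without untreated replicate 1 (0.208) and without treated replicate 3 (0.0733). TGF-β, activin and BMP genes rose in 14 of 35 cases and fell in 5, and 9 rose without treated replicate 2. In the Notch pathway 6 of 29 rose and 2 fell. Lfng, a glycosyltransferase that tunes Notch receptors, was at 6.94, 7.07 and 5.72 CPM against 15, 14.2 and 14.4 CPM (1.15 ± 0.10).

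Some lists stayed at or below the background in both directions. Proteasome subunits rose in 3 of 37 cases and fell in 4. Cytosolic ribosomal proteins rose in 12 of 81 cases and fell in 8, and only 4 rose without treated replicate 2. Interferon response genes rose in 5 of 37 cases and fell in 6. The medians of these 3 lists lay between -0.01 and 0.01 on the log2 scale.

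A further set of genes is marked by its near absence without DOX. In mouse embryos the factor Dux opens a programme at the 2-cell stage that includes Zscan4, Usp17l, Pramef and Tcstv genes, and single cells of mouse embryonic stem cell cultures can enter it for a time. A list of 44 such genes was chosen after values were seen, and 43 are in the files. Of these, 19 were tested, and 18 of them rose and none fell. The filter on low counts was passed by 15 of the 18 only through the treated control libraries, so this share follows from the filter and the choice of the list and is given as a description. Their CPM summed to 3.69, 4.08 and 4.23 without DOX and to 37.4, 36.2 and 34.7 with DOX. In the 18 libraries of the other lines the sum lay at or below 7.76. It was 2.96 to 3.81 without and 6.23 to 6.57 with DOX in the miR-137 line, and 3.56 to 4.58 and 6.03 to 6.71 in the miR-23b line. In this sum all 3 treated control libraries were thus far above each of the other 21, and the treated libraries of both miRNA lines were above their own untreated ones. The members did not rise as a set in the miR-23b line, where their median change with DOX was -0.40, with 1 called higher and 1 lower. Sp110, a listed gene, reached up to 4.36 CPM among the other 21 libraries and so weighs heavily in their sums. In the miR-137 line 3 members were called higher. The response differed by the test from that of the miR-137 line for 3 of the 18, all with the larger rise in the control line. It differed from that of the miR-23b line for 15, of which 14 had the larger rise in the control line. The other 1, Sp110, rose more in the miR-23b line (difference 0.74, adjusted p = 0.0428). The same filter and choice of list shape these counts of differences, which are given as a description too.

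Gm12800, a Pramef family gene (chr4:101909121-101911908), was at 0.399, 0.548 and 0.582 CPM without DOX and at 7.06, 6.94 and 6.45 CPM with DOX (3.74 ± 0.20, adjusted p = 8.03e-18). Zfp352 was at 0.200, 0.122 and 0.0529 CPM against 1.70, 2.47 and 1.22 CPM (3.77 ± 0.41). Duxf3, which encodes Dux (chr10:58229979-58232675), had 0, 3 and 2 counts without DOX and 16, 22 and 22 counts with DOX (3.36 ± 0.48, adjusted p = 3.19e-07). No library of one group reached the other in these genes. Zfp352 and Duxf3 passed the filter on low counts only through the treated control libraries, so their values are a description. Usp17la had 6 counts over the 3 untreated libraries and 70 over the treated ones, and Pramef6 had 1 and 72. Tcstv1 had 0 counts in each untreated library and 8, 13 and 7 with DOX, but was too rare to be tested. A sum of 0 allows up to 3 counts, by counting error alone. Zscan4d, also untested, had 3 and 30 counts in all, while Zscan4b had 5 and 7 and was the 1 tested gene that was not called. The 24 untested genes together had 11 counts without DOX and 195 with DOX. Many of these genes exist in near-identical copies, so reads that fit several are not counted and single values are uncertain. Under a filter that kept only genes above 5 CPM, 1 of the 18 calls was left.

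**Figure D4:**
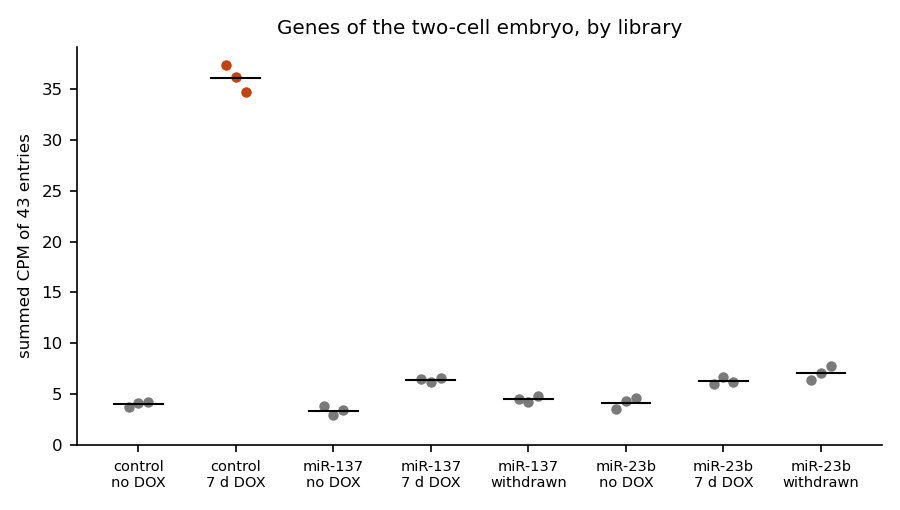
Summed CPM of the 43 genes of the 2-cell embryo list in each of the 24 libraries, by line and treatment, with 3 points a group and a line at the mean. The 3 control libraries with DOX lie between 34.7 and 37.4, and the other 21 libraries between 2.96 and 7.76.

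More widely, 32 tested genes had all 3 treated control libraries above 2 times the highest of the other 21 libraries, and 16 of them were on the 2-cell list. Of the 32, 27 passed the filter on low counts only through those 3 libraries, so the count is a description. Mgl2 (chr11:70130329-70137550), a C-type lectin known from macrophages, was among these 32 genes. It was at 1.10, 1.58 and 1.16 CPM without DOX and at 7.41, 8.27 and 7.72 CPM with DOX (2.62 ± 0.16, adjusted p = 1.26e-16). Its neighbour in the same lectin family, Clec10a, changed by 2.37 ± 0.37, and the orphan receptor gene Gpr50 by 3.2 ± 0.3. Of the 8 leukocyte markers Cd68 held most of the counts, 167 without and 183 with DOX, while the other 7 held 10 and 28 counts. The 10 genes of a wider leukocyte list, Mgl2 among them, summed to 4.09 to 4.71 CPM without and 10.5 to 11.9 CPM with DOX. Mgl2 itself, with means of 1.28 and 7.80 CPM, makes up most of that rise, so the sum is not a separate result. Cd68, the 1 other tested gene of that list, was not called (-0.001, adjusted p = 0.997). The part of such cells in these values was not tested.

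How far the control response is found in the other lines was read from comparisons that share no library with it. In the miR-137 line with DOX 42.9% of tested genes were called, and in the miR-23b line 57.4%. In their withdrawn cultures against no DOX the shares were 43.4% and 39.8%. The miR-137 line with DOX had 3622 of the 5624 control calls in the same direction, which is 64.4% of the control calls and 56.8% of its own, and 102 in the opposite one. The miR-23b line with DOX had 3386 in the same direction (60.2% and 39.7%) and 625 in the opposite one. The withdrawn cultures, 7 d after DOX was removed, had 4060 in the same direction in the miR-137 line (72.2% and 62.9%) and 3528 in the miR-23b line (62.7% and 59.6%). In all 4 comparisons 1922 control calls recurred with the same sign, 728 higher and 1194 lower. The 2 comparisons of a miRNA line share their untreated libraries with each other.

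Across the 11069 genes at 5 CPM or more, the log2 changes of the control line correlated with those of the miR-137 line at r = 0.78 (Spearman 0.71) with DOX and r = 0.85 (0.80) after withdrawal. For the miR-23b line the values were r = 0.60 (0.49) and r = 0.79 (0.73). Genes are not independent replicates, and these values describe the libraries only.

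**Figure D5:**
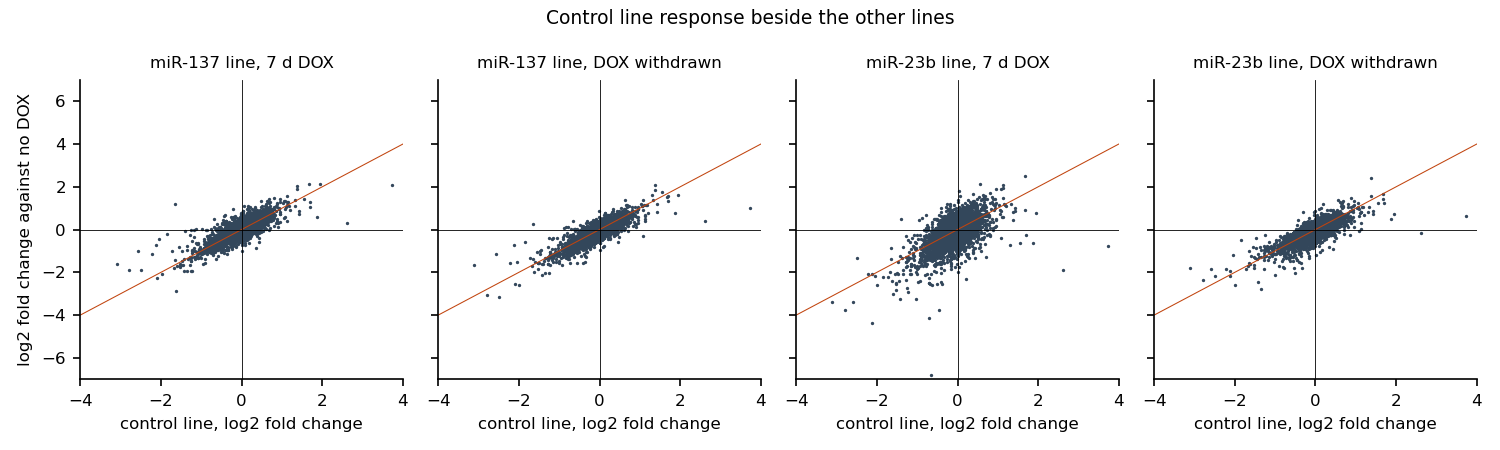
Log2 fold changes against no DOX of genes at 5 CPM or more in the control line with 7 d of DOX (horizontal) and in each of 4 comparisons of the miRNA lines (vertical), 1 point a gene, with the diagonal in red. The points follow the diagonal most closely in the withdrawn miR-137 line and spread most in the miR-23b line with DOX.

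The groups described above differ in how they recur. mt-Rnr2 changed by -1.48 in the control line, by -1.47 and -1.51 in the miR-137 and miR-23b lines with DOX, and by -1.02 and -0.87 after withdrawal. Hexa changed by -1.10 in the control line, by -1.07 and -1.21 with DOX and by -1.07 and -1.10 after withdrawal. Rragd changed by -1.54 in the control line, by -1.59 and -2.50 with DOX and by -1.57 and -1.64 after withdrawal. Selenoh, at 1.18, had values of 1.11 and 1.17 with DOX and 1.17 and 1.06 after withdrawal. Uap1l1, a relative of a nucleotide sugar enzyme, fell in the control line from 267 ± 8.04 to 87.6 ± 1.13 CPM (-1.61), and changed by -1.69 and -3.00 with DOX. Atf4 at -0.45 had values of -0.33 and -0.38 with DOX, but -0.08 and -0.18 after withdrawal. Hspa5 at 0.29 had 0.18 and 0.23, and 0.39 and 0.33. The median of the mitosis list, 0.15 in the control line, was 0.03 and -0.03 with DOX in the lines with miR-137 and miR-23b, and 0.19 and 0.11 after withdrawal.

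Direct tests of the difference between responses called 10.7% of tested genes between the miR-137 and control lines and 37.6% between the miR-23b and control lines. These tests include the control libraries, so they are not independent of the control calls. For 317 control calls, 168 higher and 149 lower, both differences were called and opposite in sign to the control line's change. This rule does not compare sizes, so a miRNA line can have changed by more in the other direction. Ddit4l, an inhibitor of mTORC1, was at 10.3, 8.65 and 11.4 CPM without DOX and at 4.66, 3.33 and 3.56 CPM with DOX (-1.40 ± 0.13). It changed by -0.09 in the miR-137 line and by 0.47 in the miR-23b line with DOX. Ihh, a hedgehog ligand, changed by -0.91 ± 0.15 in the control line and by -0.02 and 0.11 in the others. Slc26a3, an anion exchanger, changed by -2.22 ± 0.26, against -0.56 and 0.26. For all 3 genes the difference from each of the other lines passed the test, which is the rule that put them in this set.

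A larger set of 1338 genes was called in the same direction in all 3 lines with DOX and, in each miRNA line, not called different from the response of the control line, 611 higher and 727 lower. The miRNA lines were not compared with each other. The dopamine receptor gene Drd1 was at 2.90, 3.05 and 2.75 CPM in the untreated control libraries and at 0.401, 0.618 and 0.610 CPM with DOX (-2.40 ± 0.26), and changed by -3.10 and -3.54 in the other lines. Sult1c2, a sulfotransferase, was at 5.09, 5.06 and 5.66 CPM against 0.651, 0.856 and 0.762 CPM (-2.79 ± 0.20), and by -1.90 and -3.75 in the others. Rasgef1c, an exchange factor for Ras family proteins, rose from 1.95 ± 0.356 to 5.31 ± 0.392 CPM (1.43 ± 0.15), and by 0.88 and 1.01 in the others.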

How the data were processed

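PolyA RNA of 24 libraries was sequenced from a stranded kit with 500 ng of total RNA, per the labels. The deposited counts are raw reads per gene for 46517 entries, and featureCounts, RSEM 1.2.19, HTSeq 0.6.1, STAR 2.4.0g and cutadapt 1.3 are listed in the submitters' processing notes. Which of these made a table is not stated. The authors' TPM table served as an alternative only (limma, pseudocount 1). Counts were fitted with edgeR 4.0.16 in R 4.3.3 after filterByExpr and TMM, in 1 model of 8 group means over all 24 libraries, and tested by quasi-likelihood. Logged values used a prior count of 2. The common coefficient of biological variation was 3.00%. Genes were named by size of change (at 5 CPM or more, groups not overlapping), by change in CPM, up to 4 per list, and by difference from or recurrence in the other lines; some selected genes are not reported here. The members and lists were chosen with earlier results of these data known, and 5 of the lists after values were seen. Scripts were tested on simulated data. The replicate numbers did not pair the libraries (correlations of -0.11, -0.01 and -0.08). Alternatives included DESeq2, other filters, scalings and samples.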

Additional observations from a re-analysis of the deposited data

Results flagged for a closer look

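The difference between the responses of the miR-137 line and the control line was called for 1588 genes, and that between the miR-23b line and the control line for 5583 genes, with the difference tested directly in edgeR. Genes were named among those with both differences called and opposite in sign to the control line's change. Each is given as the log2 response of the miR-137 line minus that of the control line. The rule does not compare sizes: the difference for Ypel4, 0.78, exceeds in size the control line's own change of -0.20. Among genes higher in the treated control line the differences were -4.59 for Usp17la, -2.69 for Ttn, -2.66 for Sspo and -2.53 for Zfp711. They were -2.35 for Gpr50, -2.32 for Mgl2 and -2.17 for Usp17le. Among genes lower in the treated control line they were 2.28 for Serpina7, 1.74 for Bdnf, 1.65 for Slc26a3 and 1.32 for Ddit4l, and 0.89 for Ihh, 0.87 for Fam171a2, 0.78 for Ypel4 and 0.78 for Frat2. The control line's own fall of Ypel4, -0.20 on the log2 scale, lost its call in DESeq2 (adjusted p = 0.111) and without untreated replicate 3 (0.314), among other settings. The rise of Sspo lost its call in DESeq2 (0.0635) and without untreated replicate 1 (0.0501), and the fall of Serpina7 without untreated replicate 1 (0.0604). Usp17la, Usp17le and Gpr50 passed the filter on low counts only through the treated control libraries. All the named genes were picked by their differences, so these values are a description. Outside the test of levels, the number of genes with any count at equal depth was at least 20245 in the treated control libraries, above the highest of the untreated control libraries, 19709.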

How the results depend on the processing

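The counts of the control line stayed within 1.5 times their values under every alternative except a test against a change of 0.5, and no named gene reversed. Leaving out each library gave 2209 to 2428 higher and 2536 to 2761 lower genes in the control line. With a replicate block the counts were 2750 and 2878, of which 2680 and 2820 were also called without it, and it changed no other count by over 1.5 times; the libraries share only a number. DESeq2 called 2371 and 2465, and scaling by total counts gave 3179 and 2530 (55.7% higher). The test against 0.5 called 149 higher and 271 lower in the control line, 268 and 335 in the miR-137 line, 566 and 860 in the miR-23b line, 132 and 409 in the withdrawn miR-137 line, and 144 and 399 in the withdrawn miR-23b line. For the differences of response from the control line it called 21 and 5 (miR-137) and 196 and 330 (miR-23b). On TPM, 2792 genes were lower in the miR-23b line, 2134 higher in the withdrawn miR-137 line, 538 had a higher response in the miR-137 line and 1622 a lower one in the miR-23b line than in the control line; the cause was not tested. Left-out libraries gave 2732 to 2879 and 2834 to 2971 (miR-137 line), 3906 to 4064 and 3814 to 4005 (miR-23b line), 2598 to 2908 and 2893 to 3061 (withdrawn miR-137), 2330 to 2735 and 2630 to 2757 (withdrawn miR-23b), and for the differences 746 to 965 and 502 to 652 (miR-137), and 2462 to 2687 and 2541 to 2756 (miR-23b). Under the filter at 5 CPM matrix genes had 7 risers and histone genes 6, against 15 and 12. TPM is listed at 0 for mt-Ti, mt-Tm and mt-Tt, which have no value there, and mt-Tt was not called without treated replicate 2. A fit without the miR-23b line, chosen after seeing the data, called 2685 and 2879. Depth limits the rarest genes, such as those of the 2-cell list, whose highest member reached 7.06 CPM.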
